A study of Homo sapiens with 4 samples.

Results

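The collagen chain genes are the rows of the deposited table whose symbol is COL, a type number, A and a chain number. The rule found 44 such genes among 28278, and 23 of them had a mean of at least 1 CPM over the 4 libraries (CPM is the count scaled to library size, normalised as described in the methods). The other 21 were under that mean, 13 of them at or under 12 counts in every library. The members nearest to the limit were COL9A2 (1.73, 1.36, 1.04 and 0.464 CPM) and COL17A1 (0.820, 0.794, 1.19 and 1.39 CPM) inside it and COL6A2 (0.561, 0.638, 0.534 and 1.43 CPM) and COL13A1 (0.633, 0.383, 0.599 and 1.52 CPM) outside it. Every set of 4 values lists the Control hairpin first, then the first and second ATF7IP hairpin, then the SETDB1 hairpin.

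Collagens are extracellular proteins in which chains rich in glycine and proline wind around each other into a helix. Fibrillar collagens form the tensile fibres of tissue, type IV chains form the sheet-like network of basement membranes, and fibril-associated collagens decorate the fibrils. In liver, collagen is deposited mainly by stellate cells and fibroblasts during scarring, while basement membrane chains are made by several cell types.

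The cells were labelled HepG2, a line from a human hepatocellular carcinoma, and were infected with lentiviruses carrying short hairpin RNAs. Every library, Control included, came from cells kept for 48 hours with 10 µM sorafenib, an inhibitor of several kinases, in a medium containing 10% fetal bovine serum. Control shRNA has 1 library, ATF7IP shRNA-1 and ATF7IP shRNA-2 have 1 each and are the 2 libraries of ATF7IP knockdown, and SETDB1 shRNA has 1. SETDB1 methylates lysine 9 of histone H3 and ATF7IP is its partner protein. No library of untreated cells was compared, and the labels do not say how many cultures stand behind a library.

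The library totals ran from 70236882 to 73791097 counts. ATF7IP was at 59.1, 18.3, 18.8 and 97.8 CPM and SETDB1 at 47.7, 52.1, 46.7 and 11.99 CPM, so each target was lowest with its own hairpins, though edgeR, the main test, did not call either against Control (adjusted p = 0.0571 and 0.117). Between the knockdowns edgeR called both, ATF7IP higher and SETDB1 lower in the SETDB1 library (adjusted p = 0.00692 and 0.0380). The libraries went against the labelled cell type. ALB, AFP, APOB and TTR, which hepatocytes and HepG2 cells are known for, were at 0 counts in all 4 libraries, which allows up to 0.173 CPM. Of 10 hepatocyte markers 9 were at or under 12 counts in every library, TF, SERPINA1 and HNF4A had the highest means, and the 10 summed to between 0.340 and 0.520 CPM. Of 5 bile duct and epithelial markers, KRT7 was between 1007 and 1871 CPM and SOX9 between 7.05 and 10.2 CPM, while KRT19, EPCAM and CDH1 were at or under 12 counts throughout. The hepatocyte markers were as low in all 4 libraries, and each statement below is about libraries labelled HepG2.

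Collagen RNA was abundant and concentrated in a few genes, and Control held the most of it. The 44 members summed to 3450, 2671, 2270 and 2300 CPM, and the knockdown sums were 77.4%, 65.8% and 66.7% of the Control sum. These are bulk libraries, in which fewer cells of a kind and less RNA per cell cannot be told apart. The 7 genes with a mean of at least 100 CPM, COL12A1, COL4A2, COL5A1, COL7A1, COL3A1, COL4A1 and COL5A2, made up 86.7% to 89.1% of the sum in each library.

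Per kilobase of transcript, the scale on which levels of different genes can be compared, COL4A2 had the highest mean at 78.7 CPM per kb. COL5A1 (48.2), COL12A1 (45.5), COL7A1 (37.8), COL3A1 (37.7), COL4A1 (31.4) and COL5A2 (20.5 CPM per kb) followed. Some neighbours in this order changed places between libraries. COL12A1 was above COL5A1 in Control (65.8 against 63.7 CPM per kb) and below it with ATF7IP hairpin 1 (37.6 against 55.3). COL3A1 was likewise above COL7A1 in Control (60.5 against 36.2 CPM per kb) and below it with hairpin 1 (34.4 against 46.99).

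By structural class, the fibrillar genes summed to 1111, 876, 688 and 622 CPM, the type IV genes to 1079, 774, 702 and 802 CPM and the fibril-associated genes to 792, 463, 439 and 514 CPM. Control was the highest library for all 3 classes. As shares of all collagen CPM, the fibrillar genes took 32.2%, 32.8%, 30.3% and 27.1% and the type IV genes 31.3%, 28.99%, 30.9% and 34.9%, so SETDB1 knockdown had the lowest fibrillar and the highest type IV share. COL7A1, the 1 gene of anchoring fibrils, took 9.74%, 16.3%, 15.3% and 12.3% and was a larger share in every knockdown library than in Control. The multiplexin genes took 2.65%, 3.21%, 2.63% and 1.61%.

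**Figure D1:**
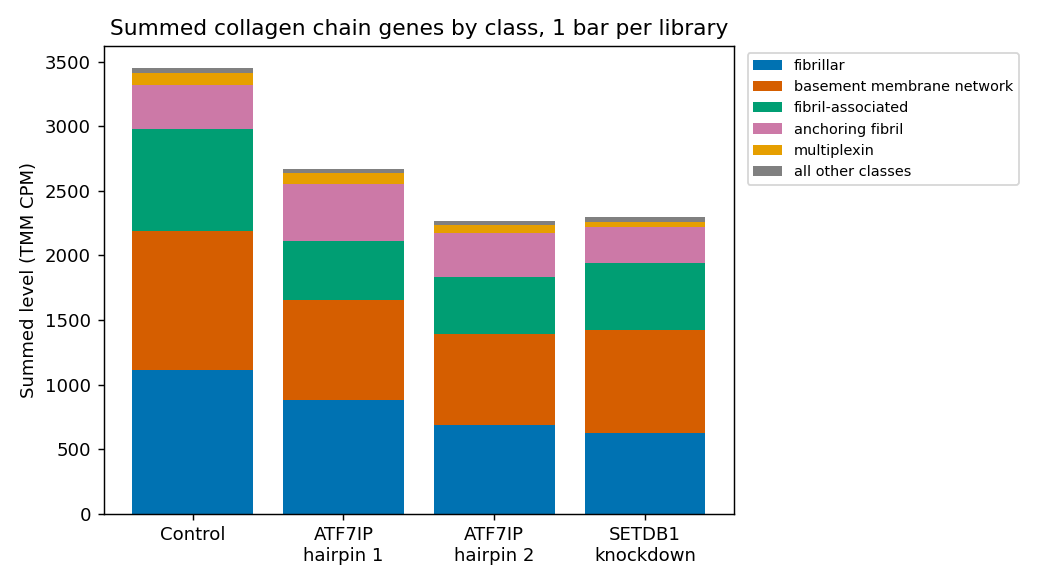
Summed level (TMM CPM) of the 44 collagen chain genes in each library, with 1 bar per library. Fibrillar, type IV (basement membrane network), fibril-associated, anchoring fibril and multiplexin genes have 1 colour each, and all other classes share 1 grey segment. The Control bar reaches 3450 CPM and the 3 knockdown bars lie between 2270 and 2671 CPM, and there are no error bars because each bar is 1 library.

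**Figure D2:**
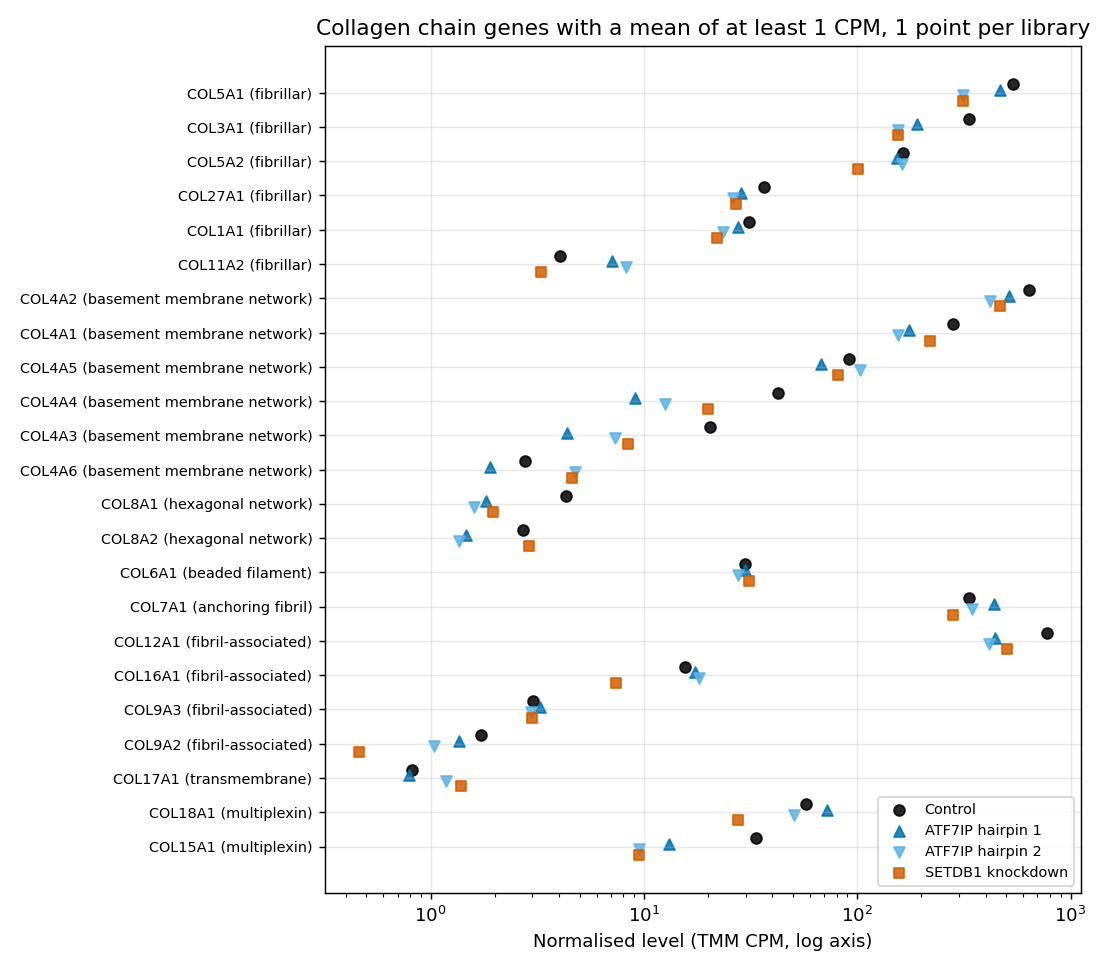
Level of each collagen chain gene with a mean of at least 1 CPM, in TMM CPM on a log axis, with 1 point per library and genes grouped by class. Levels span from 0.464 CPM (COL9A2 with the SETDB1 hairpin) to 772 CPM (COL12A1 in Control), and points are offset vertically by library so that none hides another.

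ATF7IP knockdown against Control addresses what differs under sorafenib once the cofactor is depleted. More collagen genes lay below Control than above it. Of the 23 members with a mean of at least 1 CPM, both hairpins were below Control for 14, above it for 3 and on either side of it for 6. Among all genes at that level, 35% were below in both hairpins and 35% above. The median difference of the members was −0.42 on the log2 scale (0.0031 for all genes), with −0.34 in hairpin 1 and −0.49 in hairpin 2. COL4A4, COL4A3, COL15A1 and COL8A1 were at least 2-fold lower in both hairpins, 4 of 23 against 1.57% of all genes. The number at least 2-fold higher in both was 0, against 0.959% of all genes.

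The edgeR quasi-likelihood test called, at an adjusted p under 0.05, 0 of the 36 members that passed its low-count filter (13 of them with a mean under 1 CPM), and 0.0769% of all genes. At an unadjusted p under 0.05 it had 9 members lower (COL4A4, COL4A3, COL15A1, COL3A1, COL8A1, COL12A1, COL4A1, COL8A2 and COL25A1) and 1 higher (COL11A2), against 5.47% and 3.47% of all genes, 8.94% together. DESeq2 called COL4A4, COL4A3 and COL15A1, all lower, and 1.16% of all genes. The limma-trend test called 0 members and 0.0296% of all genes. The p-values rest on how far the 2 ATF7IP libraries lie apart, and the other groups, with no replicates, were assumed to vary as much. That spread was mostly shared over genes. In edgeR each gene had 1 residual degree of freedom of its own, against a median of 8.09 taken from all genes.

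SETDB1 knockdown against Control, with 1 library a side, asks the same of the methyltransferase itself. The SETDB1 library was below Control for 19 of the 23 members and above it for 4, against 50.6% and 49.4% of all genes. The median difference was −0.51 on the log2 scale, against −0.0046 for all genes. COL9A2, COL15A1, COL4A3, COL8A1, COL3A1, COL4A4, COL16A1 and COL18A1 were at least 2-fold lower, 8 of 23 against 1.84% of all genes. The number at least 2-fold higher was 0, against 1.33%. This count depended on the limit of 1 CPM. Among the 26 members with a mean of at least 0.5 CPM, 8 were at least 2-fold lower and 3 higher (COL6A2, COL13A1 and COL5A3), against 2.25% and 2.05% of all genes. COL5A3 was under 0.5 CPM in Control (0.388) and with both ATF7IP hairpins (0.298 and 0.391). It passed this limit only through the SETDB1 library (1.11 CPM), where it was high. Both comparisons use the same Control library, so their values stand side by side and are not separate evidence.

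For SETDB1 knockdown edgeR called 0 members and 0.071% of all genes. Those 8 genes and COL5A2 had an unadjusted p under 0.05, so 9 were lower and 0 higher, against 2.53% and 2.18% of all genes, 4.71% together. DESeq2 called COL15A1 and 0.272% of all genes, and limma-trend called 0 members and 0.0355% of all genes.

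Other measures of the same libraries stand beside these differences, and some of them differed from Control in only some of the knockdown libraries. Of the 23 members 19 have transcripts of 5 kb or more. The 3018 genes of that length with a mean of at least 1 CPM had a median log2 difference from Control of −0.23 in ATF7IP hairpin 1, where the collagen median was −0.34. Their median was −0.02 in hairpin 2 and −0.02 in SETDB1 knockdown, where the collagen medians were −0.49 and −0.51. Ribosomal RNA genes held 0.325%, 0.489%, 0.408% and 0.721% of the counts, more in each knockdown library than in Control, and their part in the differences was not tested.

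The 10 stellate and fibroblast markers summed to 161, 71.8, 85.3 and 158 CPM, with PDGFRA and LRAT at or under 12 counts in every library. Their sum was lower with both ATF7IP hairpins, where its part in the collagen differences was not tested. In the SETDB1 library the sum, of which LUM was the largest part, was near that of Control. Of these markers, 7 had a mean of at least 1 CPM. Both ATF7IP hairpins were below Control for 5 of the 7 and above it for 1, against 35% and 35% of all genes. LUM, DCN and PDGFRB were at least 2-fold lower with both, 3 of 7 against 1.57% of all genes, and 0 were at least 2-fold higher, against 0.959%. The SETDB1 library was below Control for 5 of the 7 markers and above it for 2, against 50.6% and 49.4% of all genes. In it 0 of the 7 were at least 2-fold lower and 1 was higher, against 1.84% and 1.33%. The higher one was DES (0.705, 0.723, 1.02 and 1.62 CPM). PDGFRB (6.60, 2.48, 2.04 and 3.35 CPM) was below Control in all 3 knockdown libraries. LUM, a small proteoglycan gene and the highest of them, was at 81.6, 25.98, 25.9 and 92.5 CPM, and edgeR called it higher in SETDB1 than in ATF7IP knockdown (adjusted p = 0.0247). DESeq2 called it there and also in ATF7IP knockdown against Control. Next were FAP, a membrane protease gene of activated fibroblasts (31.9, 17.9, 26.1 and 25.96 CPM), and ACTA2, the smooth muscle actin gene (18.9, 12.95, 15.8 and 14.3 CPM). The 6 endothelial markers summed to between 0.354 and 0.690 CPM, with VWF, TEK and CDH5 the highest and KDR and EMCN at 0. The 5 leukocyte and macrophage markers summed to 24.1, 25.7, 27.95 and 43.7 CPM, most of it CD68 (21.9, 24.1, 25.9 and 41.98 CPM), followed by CD14 and CSF1R, with CD163 at 0.

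**Figure D3:**
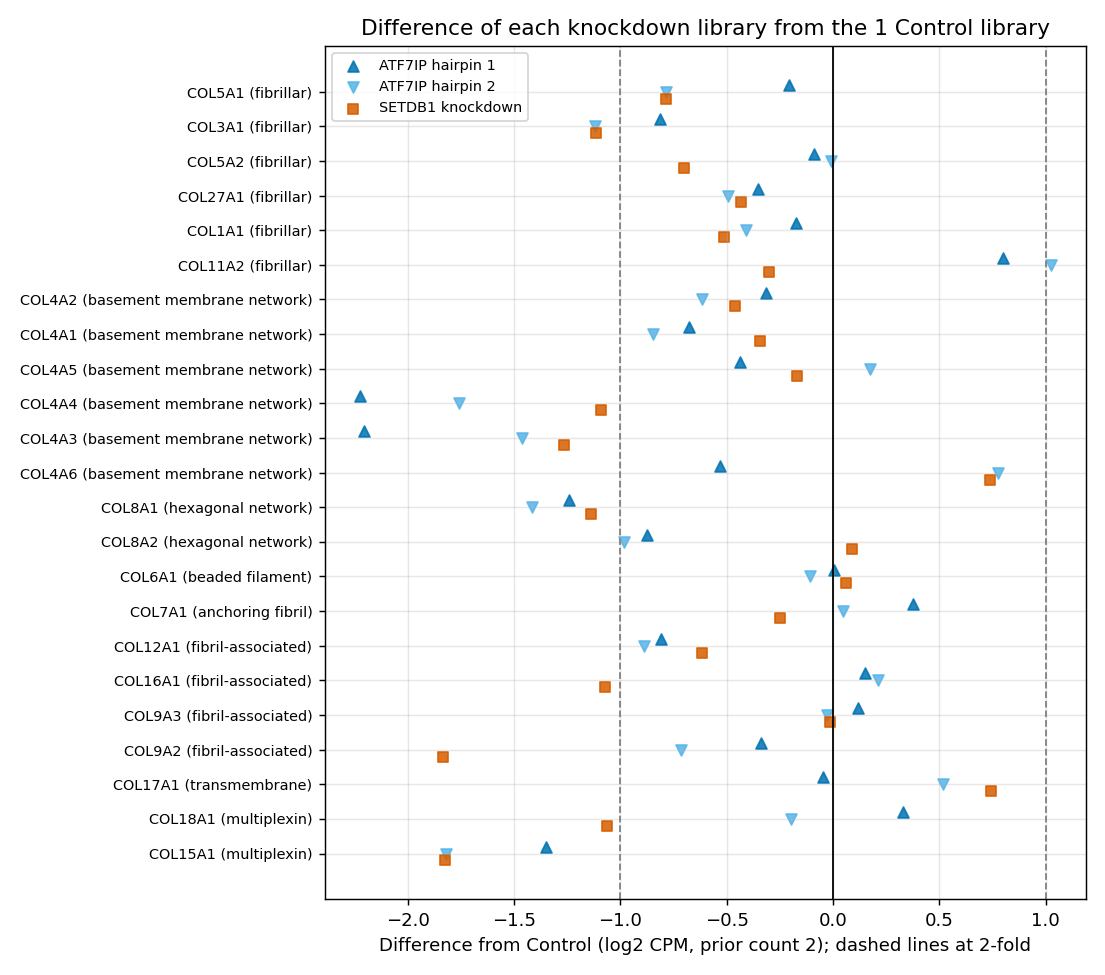
Difference of each knockdown library from the 1 Control library (log2 CPM with a prior count of 2) for the 23 collagen chain genes with a mean of at least 1 CPM, with dashed lines at 2-fold. COL4A4 and COL4A3 lie farthest left in ATF7IP hairpin 1, at −2.23 and −2.21, and COL11A2 lies farthest right in both ATF7IP hairpins.

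The type IV genes lie in head-to-head pairs and are transcribed away from each other. RefSeq start sites are 127 bp apart for COL4A1 and COL4A2 on chromosome 13, 419 bp apart for COL4A3 and COL4A4 on chromosome 2, and, at the nearest, 380 bp apart for COL4A5 and COL4A6 on the X chromosome. Their promoter windows are shown because the windows of each pair overlap, by most of their length only on chromosome 13, and the levels of each pair are compared below. For COL4A6 the RefSeq table holds a second start site, 1416 bp from that of COL4A5, and the window shown is that of the nearer site. Each window runs from 250 bases before to 50 after a start site (RefSeq, GRCh38.p14), 5′ to 3′ on the gene's strand. Capitals mark, on either strand, the CCAAT box, the GC box (letters GGGCGG) and the TATA box (letters TATAAA), which nowhere overlap one another here.
COL4A1 (chr13:110307108-110307407, reverse strand): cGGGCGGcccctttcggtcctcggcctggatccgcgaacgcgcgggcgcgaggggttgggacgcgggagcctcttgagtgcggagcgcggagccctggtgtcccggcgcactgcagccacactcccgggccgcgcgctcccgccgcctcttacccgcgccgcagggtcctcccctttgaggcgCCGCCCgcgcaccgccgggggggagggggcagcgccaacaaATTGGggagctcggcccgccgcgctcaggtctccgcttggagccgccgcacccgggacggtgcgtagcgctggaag
COL4A2 (chr13:110307034-110307333, forward strand): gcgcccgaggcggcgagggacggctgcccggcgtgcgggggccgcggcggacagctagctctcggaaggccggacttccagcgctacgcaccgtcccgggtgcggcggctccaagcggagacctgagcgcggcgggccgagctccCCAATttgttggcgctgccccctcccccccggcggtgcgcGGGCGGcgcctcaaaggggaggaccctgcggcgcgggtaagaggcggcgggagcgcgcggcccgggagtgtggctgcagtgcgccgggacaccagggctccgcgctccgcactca
COL4A3 (chr2:227164374-227164673, forward strand): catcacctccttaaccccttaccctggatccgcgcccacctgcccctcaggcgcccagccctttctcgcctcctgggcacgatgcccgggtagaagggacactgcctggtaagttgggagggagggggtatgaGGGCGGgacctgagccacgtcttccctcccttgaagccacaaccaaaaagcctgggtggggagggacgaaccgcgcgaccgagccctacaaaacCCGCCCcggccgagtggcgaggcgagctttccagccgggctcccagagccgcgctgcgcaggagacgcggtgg
COL4A4 (chr2:227164156-227164455, reverse strand): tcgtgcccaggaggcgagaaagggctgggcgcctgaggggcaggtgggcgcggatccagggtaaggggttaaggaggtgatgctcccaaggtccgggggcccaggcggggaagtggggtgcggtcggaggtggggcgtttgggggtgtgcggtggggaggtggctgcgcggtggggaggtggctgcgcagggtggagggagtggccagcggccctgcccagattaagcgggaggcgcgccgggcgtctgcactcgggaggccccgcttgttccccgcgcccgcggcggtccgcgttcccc
COL4A5 (chrX:108439588-108439887, forward strand): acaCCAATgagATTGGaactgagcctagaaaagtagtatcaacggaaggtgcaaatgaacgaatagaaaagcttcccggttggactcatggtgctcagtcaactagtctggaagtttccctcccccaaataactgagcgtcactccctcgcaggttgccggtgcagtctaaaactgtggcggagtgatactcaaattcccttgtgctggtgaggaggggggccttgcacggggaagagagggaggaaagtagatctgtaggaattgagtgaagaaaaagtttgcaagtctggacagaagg
COL4A6 (chrX:108439409-108439708, reverse strand): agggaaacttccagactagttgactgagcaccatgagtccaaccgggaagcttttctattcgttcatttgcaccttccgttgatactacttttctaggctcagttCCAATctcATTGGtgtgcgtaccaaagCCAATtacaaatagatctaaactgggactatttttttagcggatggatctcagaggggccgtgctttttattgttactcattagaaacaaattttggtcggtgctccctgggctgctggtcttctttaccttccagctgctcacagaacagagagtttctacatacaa
The windows overlap by 226 bp for COL4A1 and COL4A2, 82 bp for COL4A3 and COL4A4, and 121 bp for COL4A5 and COL4A6, of 300 bp each. The CCAAT box stood in both windows of the chromosome 13 pair and of the X-linked pair and in neither of the chromosome 2 pair. It stood in 34.6% of all 35116 windows of 300 bases. The GC box stood in the windows of COL4A1, COL4A2 and COL4A3, and in 45% of all. The TATA box (11.5% of all) and the AP-1 motif TGANTCA (7.71% of all) stood in none of these 6. The chromosome 13 windows held 45 CpG each, those of COL4A3 and COL4A4 24 and 29, and those of COL4A5 and COL4A6 8 and 7, against a median of 14. Boxes common to both windows of a pair lie in the overlap and are the same bases read on opposite strands. They are not separate sites, and CpG in the overlap were counted in both windows. The second COL4A6 window does not overlap that of COL4A5 and held 1 GC box, 0 CCAAT boxes and 5 CpG, so the statements on the X-linked pair hold for the windows shown. These are matches of letters, not measured binding sites.

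COL4A4 and COL4A3 had the largest differences from Control in ATF7IP hairpin 1 among the 23 members. They encode chains that assemble with the COL4A5 chain in the basement membranes of kidney and lung. COL4A4 (chromosome 2, 226967360 to 227164488) was at 42.7, 9.10, 12.6 and 20.03 CPM. Control was highest, the ATF7IP hairpins were lowest and the SETDB1 library lay between them. Control exceeded the 3 knockdown libraries 4.69-fold, 3.39-fold and 2.13-fold. The fitted log2 difference for ATF7IP knockdown was −1.98 ± 0.29 (here and below ± is the SE of the fit), which missed the threshold by edgeR (adjusted p = 0.0571). DESeq2 called it (adjusted p = 2.20e-05), edgeR called it when the SETDB1 library was left out (adjusted p = 0.0228), and the alternatives ran from 2.20e-05 to 0.209. For SETDB1 knockdown the difference was −1.09 ± 0.35 (edgeR adjusted p = 0.915).

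COL4A3 (chromosome 2, 227164624 to 227314792) was at 20.3, 4.38, 7.35 and 8.45 CPM, and Control again lay above all 3 knockdown libraries, 4.64-fold, 2.77-fold and 2.41-fold. Fitted differences were −1.79 ± 0.36 for ATF7IP knockdown (edgeR adjusted p = 0.159, and 0.00858 to 0.355 over the alternatives, lowest with DESeq2) and −1.27 ± 0.43 for SETDB1 knockdown (edgeR adjusted p = 0.945). RHBDD1, a rhomboid protease gene that overlaps COL4A4, was at 24.5, 14.8, 12.9 and 13.6 CPM, also highest in Control. Whether the counting used strand is not given in the sources used here, so reads of overlapping genes cannot be told apart, and the part of RHBDD1 in the COL4A4 values was not tested. MFF-DT, which overlaps COL4A3, was at 0.820, 0.964, 1.22 and 0.632 CPM, under COL4A3 in each library.

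COL4A1 and COL4A2 encode the chains found in nearly all basement membranes. COL4A1 (chromosome 13, 110148963 to 110307157) was at 280.1, 175, 156 and 221 CPM, with Control highest and both ATF7IP hairpins under the SETDB1 library. COL4A2 (chromosome 13, 110307284 to 110513209) was at 642, 516, 419 and 467 CPM, again with Control highest, but with the SETDB1 library between the hairpins. Fitted differences for COL4A1 were −0.76 ± 0.25 for ATF7IP knockdown (edgeR adjusted p = 0.370) and −0.34 ± 0.29 for SETDB1 knockdown (edgeR adjusted p = 1). For COL4A2 they were −0.46 ± 0.28 and −0.46 ± 0.33 (edgeR adjusted p = 0.736 and 1).

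The X-linked pair did not keep to 1 direction. COL4A5 (chromosome X, 108439838 to 108697545) was at 91.2, 67.3, 103 and 81.1 CPM, so Control lay between the ATF7IP hairpins, with fitted differences of −0.10 ± 0.30 and −0.17 ± 0.34 (edgeR adjusted p = 0.967 and 1). COL4A6, which joins COL4A5 in the basement membranes of skin and smooth muscle, was at 2.76, 1.90, 4.75 and 4.62 CPM. It was the 1 member of the 23 with the ATF7IP hairpins over 2-fold apart (1.31 on the log2 scale), 4.35% of them against 2.59% of all genes. Over the 23 members the hairpins lay a median of 0.30 apart on that scale, and over all genes 0.24.

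**Figure D4:**
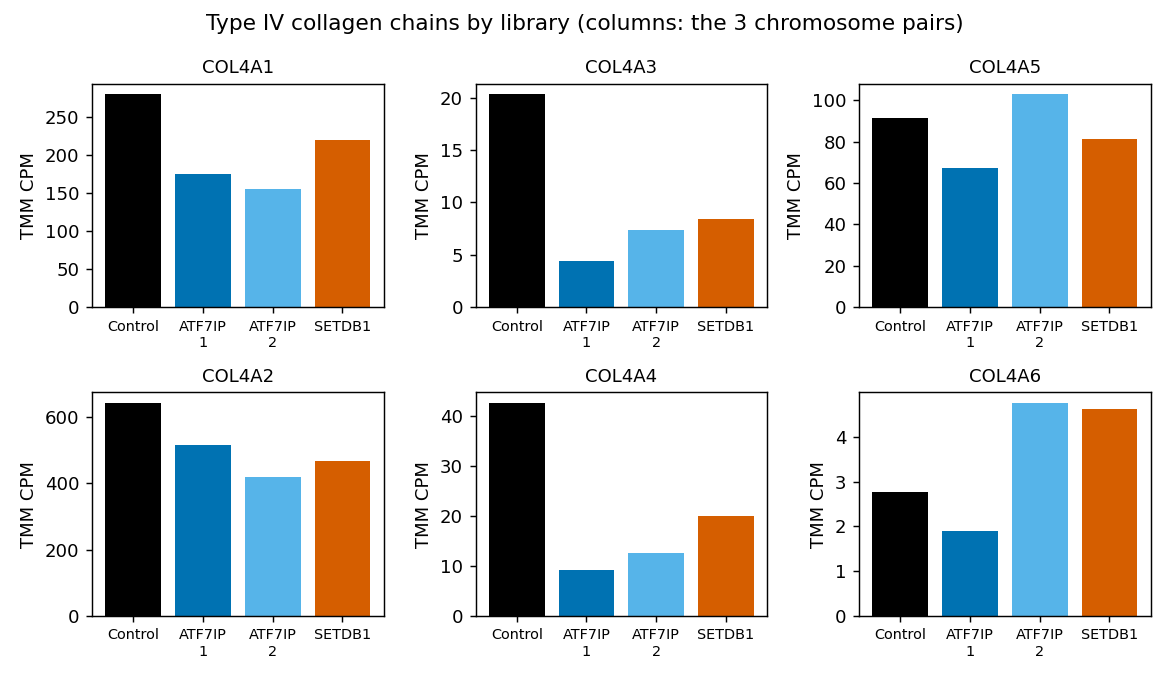
Level (TMM CPM, linear axes from 0) of the 6 type IV collagen genes in each library, with 1 column of panels for each head-to-head pair. Control has the highest bar for COL4A1, COL4A2, COL4A3 and COL4A4, while ATF7IP hairpin 2 has the highest bar for COL4A5 and COL4A6.

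Ratios of chains within a library, per kilobase, do not depend on the normalisation. COL4A1 stood to COL4A2 at 0.428, 0.333, 0.365 and 0.463, a range of 1.39-fold, while the CPM of each alone ranged 1.80-fold and 1.53-fold. COL4A3 stood to COL4A4 at 0.589, 0.595, 0.722 and 0.522, a range of 1.38-fold, while each alone ranged 4.64-fold and 4.69-fold. COL4A5 stood to COL4A6 at 33.8, 36.2, 22.1 and 17.9, a range of 2.02-fold, while each alone ranged 1.53-fold and 2.50-fold. The ratio thus ranged much less than its genes for COL4A3 and COL4A4, somewhat less for COL4A1 and COL4A2, and more than COL4A5 alone for the X-linked pair.

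Among the fibrillar genes with a mean of at least 1 CPM, COL3A1, the chain of type III collagen of soft tissues, lay farthest below Control. COL3A1 (chromosome 2, 188974373 to 189012746) was at 335, 191, 155 and 155 CPM. Every knockdown library was under Control, and the SETDB1 library was level with ATF7IP hairpin 2. The fitted difference was −0.96 ± 0.26 for ATF7IP knockdown (edgeR adjusted p = 0.276) and −1.12 ± 0.31 for SETDB1 knockdown (edgeR adjusted p = 0.773).

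COL5A1 and COL5A2 encode chains of type V collagen, which helps to start fibrils. COL5A1 (chromosome 9, 134641803 to 134844843) was at 539.5, 468, 313 and 313 CPM, with ATF7IP hairpin 1 nearer to Control than to hairpin 2. COL5A2 (chromosome 2, 189031898 to 189441111) was at 164, 154, 162 and 100.5 CPM, with the ATF7IP hairpins near Control and the SETDB1 library lowest. For COL5A1 edgeR gave −0.47 ± 0.31 with ATF7IP knockdown and −0.78 ± 0.37 with SETDB1 knockdown (adjusted p = 0.766 and 1). For COL5A2 it gave −0.05 ± 0.25 and −0.70 ± 0.29 (adjusted p = 0.986 and 1). COL5A1 stood to COL5A2 per kilobase at 2.76, 2.54, 1.61 and 2.60, lowest in ATF7IP hairpin 2.

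COL27A1 (chromosome 9, 114154098 to 114312511), a fibrillar chain of cartilage, was at 36.6, 28.7, 26.02 and 27.1 CPM, and COL1A1 (chromosome 17, 50184101 to 50201631), the main chain of type I collagen, at 31.3, 27.7, 23.5 and 21.9 CPM. Control was highest for both, by less than 2-fold. With ATF7IP knockdown edgeR gave −0.42 ± 0.26 for COL27A1 and −0.29 ± 0.27 for COL1A1 (adjusted p = 0.732 and 0.850), and with SETDB1 knockdown −0.43 ± 0.30 and −0.51 ± 0.31 (adjusted p = 1 and 1). COL1A2, whose product normally joins that of COL1A1, had 11, 7, 5 and 0 counts against 2173, 1954, 1807 and 1560 for COL1A1, at or under 12 counts in every library.

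COL11A2, a chain of type XI collagen of cartilage, lay on the other side of Control, at 4.06, 7.09, 8.28 and 3.29 CPM. Both ATF7IP hairpins were above Control and the SETDB1 library was below it. The ratio to Control was 1.76 in hairpin 1 (95% exact interval 1.30 to 2.39, counting error only, as for all such intervals), 2.06 in hairpin 2 (1.54 to 2.77) and 0.810 in SETDB1 knockdown (0.562 to 1.16). For ATF7IP knockdown the edgeR adjusted p was 0.478.

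COL12A1, a fibril-associated collagen that binds type I fibrils, had the highest mean CPM of the family. COL12A1 (chromosome 6, 75084326 to 75206053) was at 772, 441, 417 and 503 CPM. Control was highest, and of the knockdown libraries the SETDB1 library was nearest to it. Fitted differences were −0.85 ± 0.27 for ATF7IP knockdown and −0.62 ± 0.32 for SETDB1 knockdown (edgeR adjusted p = 0.359 and 1).

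COL16A1 (chromosome 1, 31652263 to 31704017), a fibril-associated chain, was at 15.6, 17.3, 18.1 and 7.38 CPM. The ATF7IP hairpins were somewhat above Control, and the SETDB1 library was 2.11-fold under it. edgeR gave 0.18 ± 0.28 with ATF7IP knockdown, −1.08 ± 0.33 with SETDB1 knockdown and −1.26 ± 0.30 between the knockdowns (adjusted p = 0.925, 0.915 and 0.223). COL9A3 and COL9A2 encode chains of type IX collagen of cartilage. COL9A3, which overlaps TCFL5 (78.3, 75.3, 63.1 and 84.2 CPM), was at 3.01, 3.26, 2.94 and 2.98 CPM, with no library apart. COL9A2 in the SETDB1 library was at 0.261 of Control (95% exact interval 0.103 to 0.582), from about 8 fragments against 30. COL9A3 stood to COL9A2 per kilobase at 2.00, 2.75, 3.24 and 7.36, the last with about 8 fragments of COL9A2. The part of TCFL5 in the COL9A3 values was not tested.

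The multiplexins are basement membrane collagens from which inhibitors of vessel growth can be cut. COL15A1 (chromosome 9, 98943907 to 99070787) was at 33.5, 13.1, 9.48 and 9.43 CPM, and Control exceeded the knockdown libraries 2.55-fold, 3.54-fold and 3.56-fold. Hairpin 2 and the SETDB1 library were level, and hairpin 1 was somewhat higher. The fitted difference was −1.57 ± 0.30 for ATF7IP knockdown (edgeR adjusted p = 0.150, and 0.00504 to 0.354 over the alternatives) and −1.83 ± 0.37 for SETDB1 knockdown (edgeR adjusted p = 0.311, and 0.00916 to 0.720 over the alternatives). In both ranges the lowest value is that of DESeq2, which called the gene in both comparisons.

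COL18A1 (chromosome 21, 45405165 to 45513720), from which endostatin is released, was at 57.7, 72.5, 50.3 and 27.6 CPM. Control lay between the ATF7IP hairpins, and the SETDB1 library was 2.09-fold under Control. The fitted differences were 0.09 ± 0.29 for ATF7IP knockdown and −1.06 ± 0.34 for SETDB1 knockdown (edgeR adjusted p = 0.972 and 0.915). SLC19A1, a folate transporter gene that overlaps COL18A1, was at 44.2, 74.6, 51.1 and 46.3 CPM. Like COL18A1 it was highest with ATF7IP hairpin 1, while its SETDB1 value was near its Control value. The part of SLC19A1 in the COL18A1 values was not tested. COL15A1 stood to COL18A1 per kilobase at 0.626, 0.195, 0.203 and 0.368, highest in Control.

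COL7A1 (chromosome 3, 48564073 to 48595329), which forms the fibrils that anchor epithelium to the layer below, was at 336, 436, 347 and 283 CPM. Both ATF7IP hairpins were above Control, hairpin 2 barely, and the SETDB1 library was below it. Fitted differences were 0.22 ± 0.28 and −0.25 ± 0.32 for ATF7IP and SETDB1 knockdown (edgeR adjusted p = 0.903 and 1). COL6A1 (chromosome 21, 45981770 to 46005048), a chain of the beaded filaments of type VI collagen, was at 29.8, 29.9, 27.6 and 31.1 CPM, with fitted differences of −0.05 ± 0.26 and 0.06 ± 0.30 (edgeR adjusted p = 0.986 and 1). The chains that join it in type VI collagen were scarce. COL6A2 had 39, 45, 41 and 102 counts and COL6A3 15, 15, 19 and 55, against 2072, 2110, 2120 and 2211 for COL6A1. COL6A1 stood to COL6A2 per kilobase at 43.4, 38.3, 42.2 and 17.7, lowest in the SETDB1 library.

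COL8A1 and COL8A2 encode the chains of type VIII collagen, a hexagonal network of vessel walls and of membranes in the eye. COL8A1 (chromosome 3, 99638594 to 99799217) was at 4.33, 1.81, 1.60 and 1.95 CPM, with all 3 knockdown libraries close together under Control. The ratios to Control were 0.420 (95% exact interval 0.269 to 0.644), 0.374 (0.238 to 0.576) and 0.456 (0.296 to 0.690). edgeR gave −1.34 ± 0.39 with ATF7IP knockdown and −1.15 ± 0.47 with SETDB1 knockdown (adjusted p = 0.315 and 1). COL8A2 was at 2.70, 1.46, 1.35 and 2.88 CPM, lower with both ATF7IP hairpins and near Control with the SETDB1 hairpin. COL17A1, a transmembrane collagen of hemidesmosomes, had intervals that included 1 for all 3 ratios to Control, with 1.75 (0.873 to 3.63) in SETDB1 knockdown.

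Of the 21 members under a mean of 1 CPM, COL9A1, COL22A1 and COL23A1 were at 0 in every library, and the cartilage genes COL2A1, COL10A1 and COL11A1 did not pass 12 counts in any. Some of these 21 were highest in the SETDB1 library and others elsewhere, such as COL6A5 (15, 27, 47 and 16 counts) with ATF7IP hairpin 2. The share of all genes at this level that were highest in the SETDB1 library was not computed. Of the members highest there, COL24A1 (9, 7, 0 and 15 counts), COL19A1 (4, 0, 6 and 11) and COL2A1 (0, 6, 0 and 7) were near the floor of 12 counts. COL13A1, COL6A2, COL5A3 and COL6A3 were above it and are given with intervals, a choice made after their values were seen. The SETDB1 library stood to Control at 2.40 for COL13A1 (95% exact interval 1.15 to 5.36), 2.54 for COL6A2 (1.19 to 5.90), 2.79 for COL5A3 (1.13 to 7.82) and 3.42 for COL6A3 (1.07 to 14.3). COL25A1, a transmembrane collagen of neurons, had 35, 4, 0 and 16 counts, highest in Control.

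SETDB1 against ATF7IP knockdown tests the difference between the knockdowns directly. The SETDB1 library was under both ATF7IP hairpins for 8 of the 23 members and above both for 8, against 36.4% and 34.4% of all genes. The median difference was −0.04 on the log2 scale (−0.0085 for all genes). COL16A1, COL9A2 and COL11A2 were at least 2-fold under both hairpins, 3 of 23 against 1.14% of all genes, and 0 were at least 2-fold above both, against 1.56%. At a mean of at least 0.5 CPM the same rule gave 3 lower and 3 higher of 26 members, against 1.53% and 1.88%. The higher ones include COL5A3, which passed that limit only through the SETDB1 library.

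Between the knockdowns edgeR called 0 members and 0.166% of all genes. At an unadjusted p under 0.05 it had 5 members lower (COL5A2, COL18A1, COL16A1, COL11A2 and COL9A2) and 5 higher (COL4A4, COL8A2, COL6A2, COL13A1 and COL5A3), against 4.34% and 5.53% of all genes, 9.88% together. DESeq2 called COL16A1 and COL18A1, both lower, and 1.21% of all genes, and limma-trend called 0 members and 0.0533% of all genes. COL18A1 differed by −1.15 ± 0.30 (edgeR adjusted p = 0.273, and 0.0397 to 0.442 over the alternatives). For COL16A1 the alternatives gave 0.0397 to 0.386. COL4A4 differed by 0.89 ± 0.29 (edgeR adjusted p = 0.380).

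Genes that hydroxylate, glycosylate and fold collagen chains lay on both sides of Control. Of 19 such genes, 18 had a mean of at least 1 CPM. Both ATF7IP hairpins were below Control for 4 and above it for 8, against 35% and 35% of all genes, with a median log2 difference of 0.04. The SETDB1 library was below for 6 and above for 12, against 50.6% and 49.4%, with a median of 0.16. Against Control edgeR, DESeq2 and limma-trend called 0 of them. At an unadjusted p under 0.05 edgeR had 1 lower with ATF7IP knockdown and 0 with SETDB1 knockdown, against 5.47% and 2.53% of all genes. The 3 highest were P4HB, a subunit of prolyl 4-hydroxylase (552, 623, 519 and 578 CPM), COLGALT1, a collagen galactosyltransferase (344, 471, 427 and 405 CPM), and the prolyl isomerase PPIB (336, 475, 336 and 331 CPM). SERPINH1, the collagen chaperone HSP47, was singled out after its values were seen, at 245, 172, 112 and 309 CPM. It was under Control with both ATF7IP hairpins and above it with the SETDB1 hairpin, and between the knockdowns DESeq2 called it while edgeR did not (adjusted p = 0.273, and 0.0346 to 0.447 over the alternatives).

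Of 13 genes that cleave procollagen or cross-link fibrils, 10 had a mean of at least 1 CPM. Both ATF7IP hairpins were below Control for 6 and above it for 2 (median −0.10), against 35% and 35% of all genes. The SETDB1 library was below for 7 and above for 3 (median −0.20), against 50.6% and 49.4%. The 3 highest were the lysyl oxidase genes LOXL2 (237, 234, 221 and 255 CPM) and LOX (150.3, 84.3, 93.01 and 109 CPM) and BMP1, the procollagen C-proteinase (82.4, 76.9, 72.9 and 69.7 CPM).

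ADAMTS2, which removes the amino-terminal propeptide of fibrillar procollagens, was singled out after its values were seen. It was at 0.259, 2.71, 3.13 and 3.94 CPM, and all 3 knockdown libraries were above Control. Their ratios to Control were 11.8 (95% exact interval 4.33 to 45.2), 13.6 (5.04 to 51.5) and 17.1 (6.39 to 64.5), with about 4 fragments in Control. edgeR gave 3.49 ± 0.51 with ATF7IP knockdown and 3.92 ± 0.55 with SETDB1 knockdown and did not call it (adjusted p = 0.0571 and 0.0603). Over the alternatives the adjusted p ran from 0.000442 to 0.191 and from 0.00102 to 0.248, with the lowest values from DESeq2, which called it in both.

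Of 11 collagen receptor and uptake genes, 6 had a mean of at least 1 CPM. Both ATF7IP hairpins were below Control for 4 and above it for 0 (median −0.45), against 35% and 35% of all genes. The SETDB1 library was below for 4 and above for 2 (median −0.19), against 50.6% and 49.4%. The 3 highest were the integrin genes ITGB1 (628, 537, 691 and 820.4 CPM) and ITGA1 (169, 152, 188 and 166 CPM) and MRC2, an endocytic collagen receptor (131, 116, 83.3 and 70.2 CPM). DDR2, a receptor kinase for fibrillar collagen named after its values were seen, was at 22.7, 10.2, 11.3 and 17.8 CPM. It was at least 2-fold under Control with both ATF7IP hairpins, 1 of 6 against 1.57% of all genes. In all 3 comparisons edgeR, DESeq2 and limma-trend called 0 of these genes. At an unadjusted p under 0.05 edgeR had, of the 10 tested, 1 lower in ATF7IP knockdown (DDR2), against 5.47% of all genes. It had 1 lower in SETDB1 knockdown (MRC2), against 2.53%, and 2 higher between the knockdowns, against 5.53%. Those 2 were DDR2 and the integrin gene ITGA2 (55.6, 25.9, 49.2 and 81.6 CPM).

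TGF-beta is a known inducer of collagen genes, and all 14 genes of its signalling list had a mean of at least 1 CPM. Both ATF7IP hairpins were below Control for 8 and above it for 3 (median −0.38), against 35% and 35% of all genes. The SETDB1 library was below for 10 and above for 4 (median −0.25), against 50.6% and 49.4%. The 3 highest were the signal transducer SMAD2 (130.04, 139, 145 and 107 CPM), the receptor TGFBR1 (146, 107, 121 and 85.2 CPM) and the target gene CCN2 (124, 108, 45.6 and 91.1 CPM). TGFBR2, the receptor that binds the ligand first, was at 58.05, 12.7, 12.9 and 72.1 CPM. It fell in ATF7IP knockdown by edgeR (−2.18 ± 0.25, adjusted p = 0.0240, and 9.69e-10 to 0.142 over the alternatives). That call was lost with DESeq2 size factors, with limma-trend and with no filter on low counts. TGFBR2 was higher in SETDB1 than in ATF7IP knockdown by edgeR (adjusted p = 0.00692, and 2.14e-13 to 0.0493 over the alternatives, all under 0.05). Its SETDB1 value was not called against Control (edgeR adjusted p = 1).

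TGFBR3 and TGFB3, the other genes of this list at least 2-fold from Control with both ATF7IP hairpins, were singled out after their values were seen and lay on opposite sides of it. With TGFBR2, 2 of the 14 were at least 2-fold lower and 1 was higher, against 1.57% and 0.959% of all genes. TGFBR3, the co-receptor betaglycan, was at 52.98, 17.8, 21.8 and 47.2 CPM, lower with both ATF7IP hairpins and near Control with the SETDB1 hairpin. edgeR did not call it in ATF7IP knockdown (−1.42 ± 0.26, adjusted p = 0.139, and 0.00199 to 0.327 over the alternatives) or between the knockdowns (1.26 ± 0.26, adjusted p = 0.174, and 0.00995 to 0.374 over the alternatives). DESeq2 gave the lowest value in both ranges and called it in both. TGFB3, a ligand gene, was at 2.33, 5.03, 5.84 and 3.60 CPM, with all 3 knockdown libraries above Control. Its fitted difference in ATF7IP knockdown was 1.22 ± 0.39 (edgeR adjusted p = 0.359, and 0.290 to 0.499 over the alternatives), and edgeR, DESeq2 and limma-trend did not call it in any comparison. The ligand gene TGFB2 went the other way, at 27.9, 16.6, 15.7 and 13.1 CPM, with all 3 knockdown libraries below Control. It was the 1 gene of the 14 at least 2-fold lower in SETDB1 knockdown, against 1.84% of all genes. edgeR gave −0.79 ± 0.26 with ATF7IP and −1.09 ± 0.32 with SETDB1 knockdown (adjusted p = 0.382 and 0.824). TGFB1, the third ligand gene, was at 46.8, 64.7, 52.6 and 39.8 CPM.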

How the data were processed

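PolyA RNA libraries were made with DNBSEQ-G400 protocols (per the labels). The authors deposited 1 table of estimated counts per gene symbol, in whole numbers, not normalised. Tools listed in the submitters' processing notes, with no role given, are HISAT2 2.2.1, StringTie 2.2.1 and DESeq2 1.34.0, with hg38 as genome. The annotation is not given in the sources used here. In Control 489 genes stood at 4 counts, 288 at 3 and 265 at 5, so 4 counts per fragment were assumed. The floor of 3 fragments (12 counts) and the 95% exact (Clopper-Pearson) intervals rest on that, and neither allows for PCR duplicates or any error but counting. The table had 0 columns of no sample.

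CPM was scaled by edgeR's TMM (trimmed mean of M values). The quasi-likelihood test of edgeR 4.0.16 (R 4.3.3, filterByExpr with a minimum count of 10, robust fit) used all 4 libraries in 3 groups, with Benjamini-Hochberg adjustment over 16900 genes. It was tested on simulated data. The 2 ATF7IP libraries carry different hairpins, and their spread, the 1 residual degree of freedom, may be technical. Values without a test are log2 CPM with a prior count of 2, and a 2-fold difference had to hold in each library compared at a mean of at least 1 CPM. DESeq2 1.42.0, limma 3.58.1, other scalings, filters and prior counts, and left-out libraries were alternatives.

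Positions and promoters are RefSeq's (GRCh38.p14, the assembly of hg38). Windows on chromosome 8, where COL14A1 and COL22A1 lie, were left out for the members, and 32 of the 44 members had a promoter entry elsewhere. Transcript lengths are those of the principal GENCODE 29 transcript, found for all 44. Members with a mean of at least 1 CPM were named. Fits were printed for those with at least 10 CPM, or with 2-fold differences in all 3 knockdown libraries. Each other list gives its 3 highest genes and any gene that edgeR called. Members and lists were chosen with earlier results of these data known.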

Additional observations from a re-analysis of the deposited data

How the results depend on the processing

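The edgeR count of 0 members called stayed 0 in all 3 comparisons with DESeq2 size factors, with limma-trend and with no filter on low counts. The DESeq2 Wald test called 3 members in ATF7IP knockdown, 1 in SETDB1 knockdown and 2 between the knockdowns. Left without the SETDB1 library, edgeR called 1 in ATF7IP knockdown (COL4A4). The share of all genes called in that fit is not given here. The counts at least 2-fold lower stayed within 1.5 times in every alternative run. Those at least 2-fold higher were 3 in SETDB1 knockdown against Control and 3 between the knockdowns at a mean of at least 0.5 CPM. Both counts include COL5A3, which passed that limit only through the SETDB1 library. With 1 ATF7IP hairpin left out the counts at least 2-fold higher were 0 to 1 in ATF7IP knockdown and 1 to 2 between the knockdowns. The median difference between the knockdowns was −0.15 at a mean of at least 5 CPM, and ran from −0.13 to 0.0026 with 1 ATF7IP hairpin left out. The collagen sums were 3416, 2646, 2362 and 2254 CPM by library totals without TMM, and 2678, 2230, 1853 and 1797 CPM without COL12A1. Small differences changed sign when 1 ATF7IP hairpin was left out. In ATF7IP knockdown the log2 values ran from −0.11 to 0.0050 for COL6A1, −0.20 to 0.33 for COL18A1 and −0.44 to 0.17 for COL4A5. Between the knockdowns they ran from −0.14 to 0.16 for COL4A2, −0.30 to 0.0026 for COL3A1, −0.080 to 0.059 for COL27A1, −0.58 to 0.0019 for COL5A1 and −0.34 to 0.27 for COL4A5. COL4A2 between the knockdowns was also 0.0071 with DESeq2 size factors, 0.0071 with the DESeq2 test, 0.0062 with limma-trend and 0.0037 without the Control library. The cause of these changes was not tested. Fits that leave out an ATF7IP hairpin have no residual degrees of freedom and give values only. No paired analysis was possible because Control and SETDB1 knockdown have 1 library each, so the groups share fewer than 2 replicate numbers. Members near the floor are limited by depth.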

Other observations

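Some rows named after a collagen gene are not chain genes. The pseudogene COL6A4P1 had 14, 7, 40 and 32 counts. The antisense RNAs COL4A2-AS1 (11, 8, 10 and 3 counts), COL18A1-AS1 (0, 8, 10 and 4) and COL5A1-AS1 (7, 7, 8 and 0) did not pass 12 counts in any library. COL1A2-AS1, COL4A2-AS2, COL18A1-AS2, COL6A4P2 and COL25A1-DT were at 0 in every library.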
